A study of Homo sapiens with 8 samples.

Results

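The genes described here are 41 human genes that are switched on by interferon. They were chosen by name from a table of 30755 genes measured by RNA-seq, and all 41 were found in it. No measured value enters the rule, but the list was drawn up with earlier results of these data known. The cells were ESO26, a cell line established from an adenocarcinoma of the oesophagus. One group of 2 libraries came from cells in which HNF4A, a transcription factor of endodermal tissues, was knocked down with a small interfering RNA (siHNF4A 1 and 2), and the other group came from control cells (control 1 and 2). The labels do not say what the control cells received, which siRNA sequence was used, how long the cells were treated, or whether the libraries of a group came from separate cultures. P-values therefore measure only the spread between these libraries, which may be technical. As RNA was taken from whole cultures of 1 line, a smaller number of responding cells and less RNA in each cell cannot be told apart.

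Interferons are secreted proteins that warn cells of viral infection. Type I and type III interferons bind receptors coupled to the kinases JAK1 and TYK2, which activate a complex that contains STAT2 and IRF9. This complex enters the nucleus and binds the interferon-stimulated response element (ISRE) in the promoters of many genes, whose products sense viral RNA, degrade it, block its translation or modify proteins. Interferon gamma acts mainly through a different element, the gamma-activated site (GAS), which drives genes such as IRF1. Many tumour cell lines express interferon-stimulated genes at a basal level without added interferon.

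To show elements through which interferon acts on many such genes, promoters were taken from a table of RefSeq promoters (build GRCh38.p14). This promoter table held 45 promoters of 34 of the 41 genes, 1 of them under a newer symbol (RIGI, for DDX58). It had no entry for DHX58, IFIT2, IRF7, MX2, OAS2, OASL and USP18, although RefSeq annotates these genes. Each promoter runs from 250 bases before the gene start to 50 bases after its beginning, 300 bases in all. The ISRE core was searched as GAAA, then any 2 bases, then GAAA, and the GAS core as TTCNNNGAA, where N is any base, on both strands. An ISRE core was present in 23 of the 34 genes (67.6%), against 4.38% of all 27305 genes of the RefSeq table, and in 60% of their promoters, against 3.57% of all 35116 promoters. A GAS core was present in 9 of the 34 genes (26.5%) and in 22.2% of their promoters, against 9.38% of all genes and 7.66% of all promoters. The cores overlapped each other in BST2, IFI27, IFITM1 and MX1, and neighbouring ISRE cores shared bases in BST2, HERC5, IFIH1, ISG15 and TRIM21. The core of the HNF4 site, searched as CAAAGTCCA on both strands, was found in 0 of the 34 genes, against 0.472% of all genes, a share that corresponds to less than 1 gene among 34.

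Stretches of 250 bases before the start are shown for the 6 genes with an entry that passed the test described below, and for ISG15 and IFIT1, which did not pass it and whose promoters carry typical ISRE cores. Capitals mark ISRE and GAS cores. Sequences read 5′ to 3′ on the strand of the gene, so that TTTC runs mark an ISRE core on the opposite strand. The stretches are at chr4:88456869-88457118 (plus strand) for HERC5, chr10:89414318-89414567 (plus strand) for IFIT5, chr3:122680589-122680838 (plus strand) for PARP14, chr1:78649539-78649788 (plus strand) for IFI44, chr5:132490774-132491023 (minus strand) for IRF1, chr14:24161015-24161264 (plus strand) for IRF9, chr1:1013247-1013496 (plus strand) for ISG15 and chr10:89392373-89392622 (plus strand) for IFIT1.
HERC5: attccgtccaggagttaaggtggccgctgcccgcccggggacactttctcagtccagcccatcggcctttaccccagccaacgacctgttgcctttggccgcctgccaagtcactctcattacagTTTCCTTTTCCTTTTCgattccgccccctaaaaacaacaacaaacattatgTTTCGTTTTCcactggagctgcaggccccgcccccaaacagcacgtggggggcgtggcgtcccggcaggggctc
IFIT5: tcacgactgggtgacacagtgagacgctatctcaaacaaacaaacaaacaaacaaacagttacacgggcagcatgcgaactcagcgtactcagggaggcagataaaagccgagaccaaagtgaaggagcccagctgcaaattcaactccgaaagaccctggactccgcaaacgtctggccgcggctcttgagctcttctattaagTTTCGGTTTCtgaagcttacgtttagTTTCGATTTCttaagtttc
PARP14: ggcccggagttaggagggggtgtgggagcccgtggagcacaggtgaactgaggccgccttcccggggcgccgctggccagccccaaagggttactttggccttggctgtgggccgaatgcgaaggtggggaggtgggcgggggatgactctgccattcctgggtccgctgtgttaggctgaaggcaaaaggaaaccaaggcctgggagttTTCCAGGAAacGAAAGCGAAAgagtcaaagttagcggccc
IFI44: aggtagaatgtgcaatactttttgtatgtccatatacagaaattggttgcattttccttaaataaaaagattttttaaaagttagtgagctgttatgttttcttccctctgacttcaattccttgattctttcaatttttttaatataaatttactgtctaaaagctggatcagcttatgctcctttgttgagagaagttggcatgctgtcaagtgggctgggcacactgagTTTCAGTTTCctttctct
IRF1: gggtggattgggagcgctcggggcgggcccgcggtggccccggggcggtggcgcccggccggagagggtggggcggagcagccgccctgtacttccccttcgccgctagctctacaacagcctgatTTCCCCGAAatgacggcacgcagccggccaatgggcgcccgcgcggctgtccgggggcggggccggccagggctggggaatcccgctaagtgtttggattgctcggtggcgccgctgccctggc
IRF9: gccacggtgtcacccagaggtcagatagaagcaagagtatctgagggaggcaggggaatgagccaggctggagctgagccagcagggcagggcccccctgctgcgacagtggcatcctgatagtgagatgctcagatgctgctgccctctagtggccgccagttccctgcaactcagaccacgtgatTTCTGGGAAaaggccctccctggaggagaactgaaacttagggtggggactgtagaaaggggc
ISG15: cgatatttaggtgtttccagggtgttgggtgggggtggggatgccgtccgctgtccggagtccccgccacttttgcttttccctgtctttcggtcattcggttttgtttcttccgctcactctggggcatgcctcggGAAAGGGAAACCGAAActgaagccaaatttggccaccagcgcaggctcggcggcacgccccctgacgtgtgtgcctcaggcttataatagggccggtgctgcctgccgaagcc
IFIT1: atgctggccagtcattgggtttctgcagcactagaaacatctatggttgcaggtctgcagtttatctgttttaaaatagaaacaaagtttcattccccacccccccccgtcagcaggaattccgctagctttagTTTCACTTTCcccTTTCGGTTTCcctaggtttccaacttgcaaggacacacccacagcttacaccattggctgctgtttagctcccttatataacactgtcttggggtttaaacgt
HERC5 showed 3 ISRE cores, which begin 125, 119 and 74 bases before the start, and the first and the next share bases. IFIT5 had 3 as well, and the last of them runs across the gene start and is cut off in the stretch shown. PARP14 had an ISRE core beginning 29 bases before the start beside a GAS core beginning 40 bases before it. IRF1 and IRF9 showed a GAS core and no ISRE core in these windows.

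**Figure D1:**
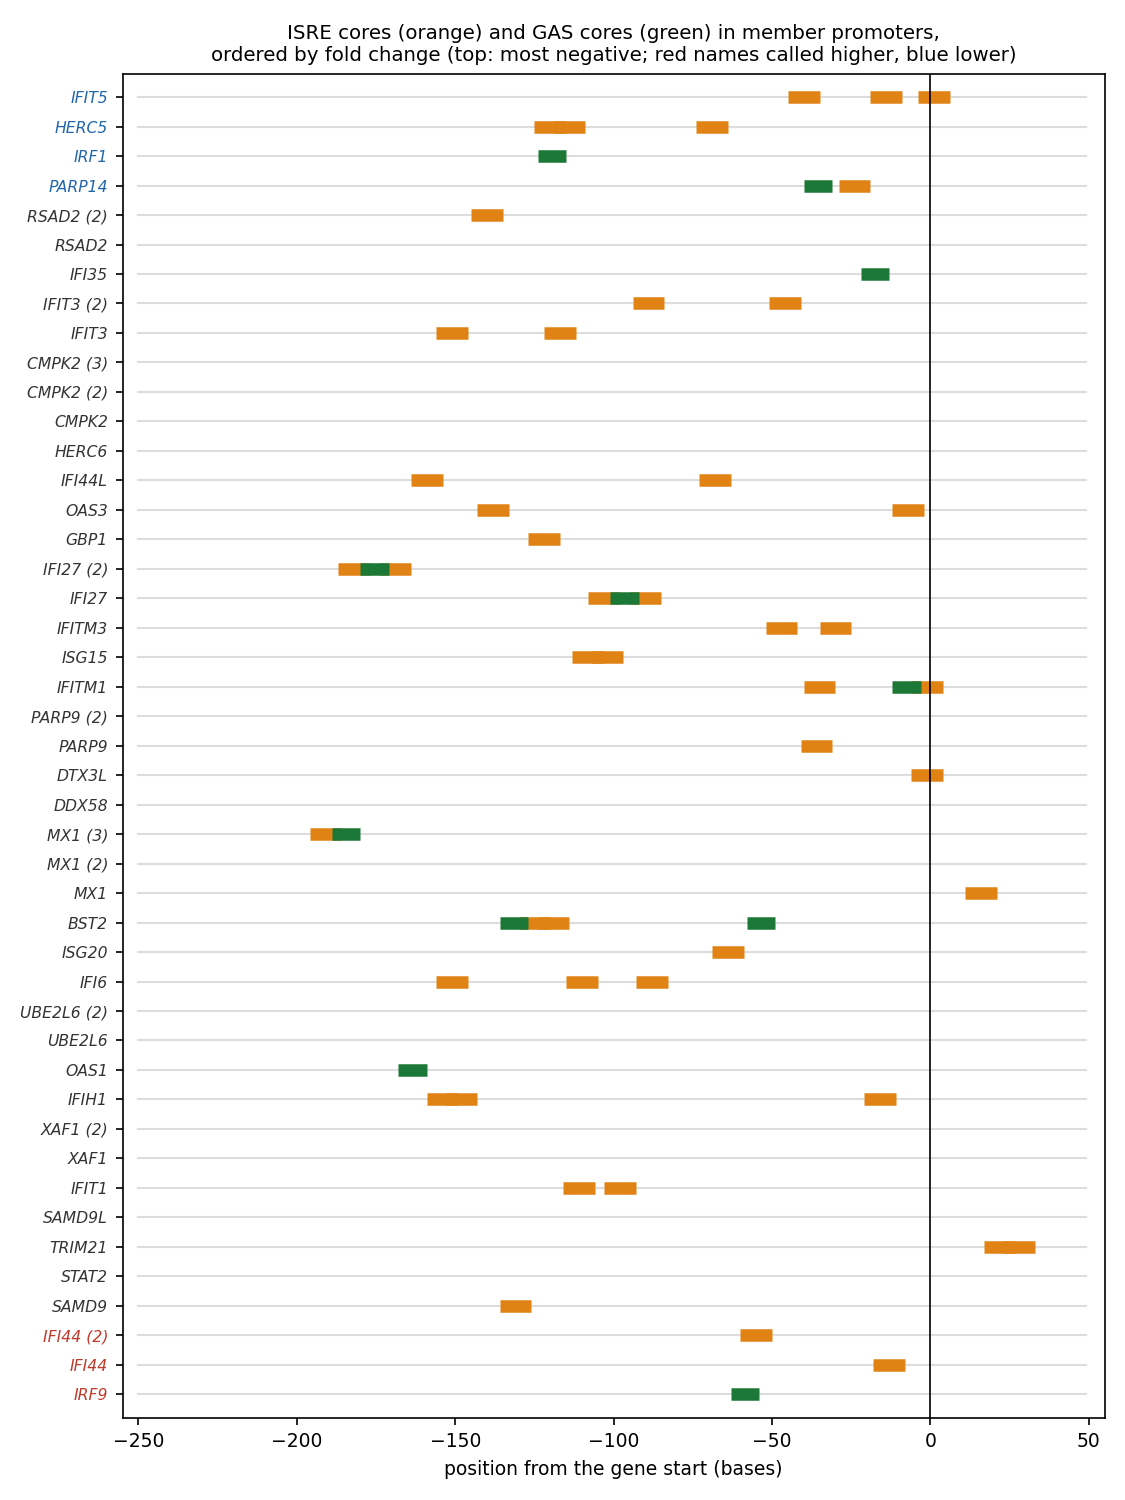
Positions of ISRE cores (orange) and GAS cores (green) in the 45 promoters of 34 genes, as bases from the gene start on the horizontal axis. Genes with more than one promoter are numbered, and rows run from the most negative log2 fold change at the top to the most positive at the bottom. ISRE cores occur along the whole order, both in genes called lower (blue names) and in IFI44, which was called higher (red name).

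The depth of the libraries in reads is unknown. The normalized counts summed to between 17912507 and 18613685 per library, and the 41 genes made up 0.335% to 0.349% of that sum. Most markers of gastrointestinal epithelium were present. Of 12 such markers 10 passed the filter on low values, KRT8, EPCAM and VIL1 among them, while CLDN18 lay between 0 and 2.24 normalized counts. Of these 10, 4 were called lower (EPCAM, KRT8, KRT18 and CLDN4) and 2 higher (KRT19 and MUC13) in the knockdown. Among all genes tested 8.11% were called lower and 6.02% higher. Of 10 leukocyte markers 6 had a row in the table, and these, which would mark immune cells, summed to 92.4 to 141 normalized counts, of which LYZ (29.2 to 78.7), CD68 (28.5 to 64.4) and CD14 made up most and were not called, with PTPRC at no more than 2.05 and NKG7 listed at 0 in every library. The squamous markers summed to 17.4 to 38.4. KRT14 had 0.637 and 2.29 normalized counts in the control and 12.2 and 25.7 in the knockdown, and was called higher (adjusted p = 0.0185 in limma). It reached the filter, a mean of 10, only through its knockdown values, and its control values are near the floor. KRT5 lay lower, at a mean of 8.33 against 22.4 in the control, and was not called (adjusted p = 0.190 in limma). Those of fibroblasts and endothelium summed to 147 to 302, with VWF called higher at 47.5 and 36.4 normalized counts (adjusted p = 0.00542 in limma). The part of any of these markers in the results below was not tested. HNF4A itself had 4129 and 3937 normalized counts in the control and 1140 and 932 in the knockdown, 25.7% of the control mean. HNF4A thus fell by 1.97 on the log2 scale (standard error 0.095, adjusted p = 1.59e-05 in limma).

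When HNF4A was lowered, few of the interferon-stimulated genes passed the test, and those that did went in both directions. The test was limma's, on log2(normalized count + 1), over every gene of the table whose mean reached 10, with 0.05 as the threshold for the adjusted p. All 41 members passed this filter, with means from 161 to 9306 normalized counts. Of these, 7 were called, 5 lower (OASL, IFIT5, HERC5, IRF1 and PARP14) and 2 higher (IRF9 and IFI44). That is 17.1% of the list. None of the 7 was called without the filter on low values or without the trend in the variance, where 0 members were called in limma and 11 and 9 had an unadjusted p under 0.05. Of all 15577 genes tested 14.1% were called, 8.11% lower and 6.02% higher. Among the 9835 genes whose means lie within the range of the members, 19% were called. The share of called members thus lay between these background shares. The log2 fold changes of the members ran from -0.57 for OASL to 0.43 for IRF9, with 20 above and 21 below 0. Their median was -0.032, beside -0.0073 over all genes tested and -0.038 over the genes of like mean, and their median absolute value was 0.16, beside 0.20 and 0.16. Both called and at least 0.5 from 0 in log2 fold change were 2 members, OASL and IFIT5, and 5.99% of all genes tested.

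The number of called members changed when 1 library was left out. It was 6 without control 1, 2 without control 2, 2 without siHNF4A 1 and 1 without siHNF4A 2, while the number of called genes in the whole table was 2413, 1916, 985 and 906 in the same order. In each of these fits 1 group holds a single library, which is assumed to vary like the others, and the spread comes from the pair in the other group and from limma's prior over all genes. A call gained or lost there is therefore no separate test of the gene. For 2 libraries against 2, the smallest p that exact permutation (two-sided) allows for 1 gene is 0.333, and each call therefore relies on limma's sharing of variances among genes.

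**Figure D2:**
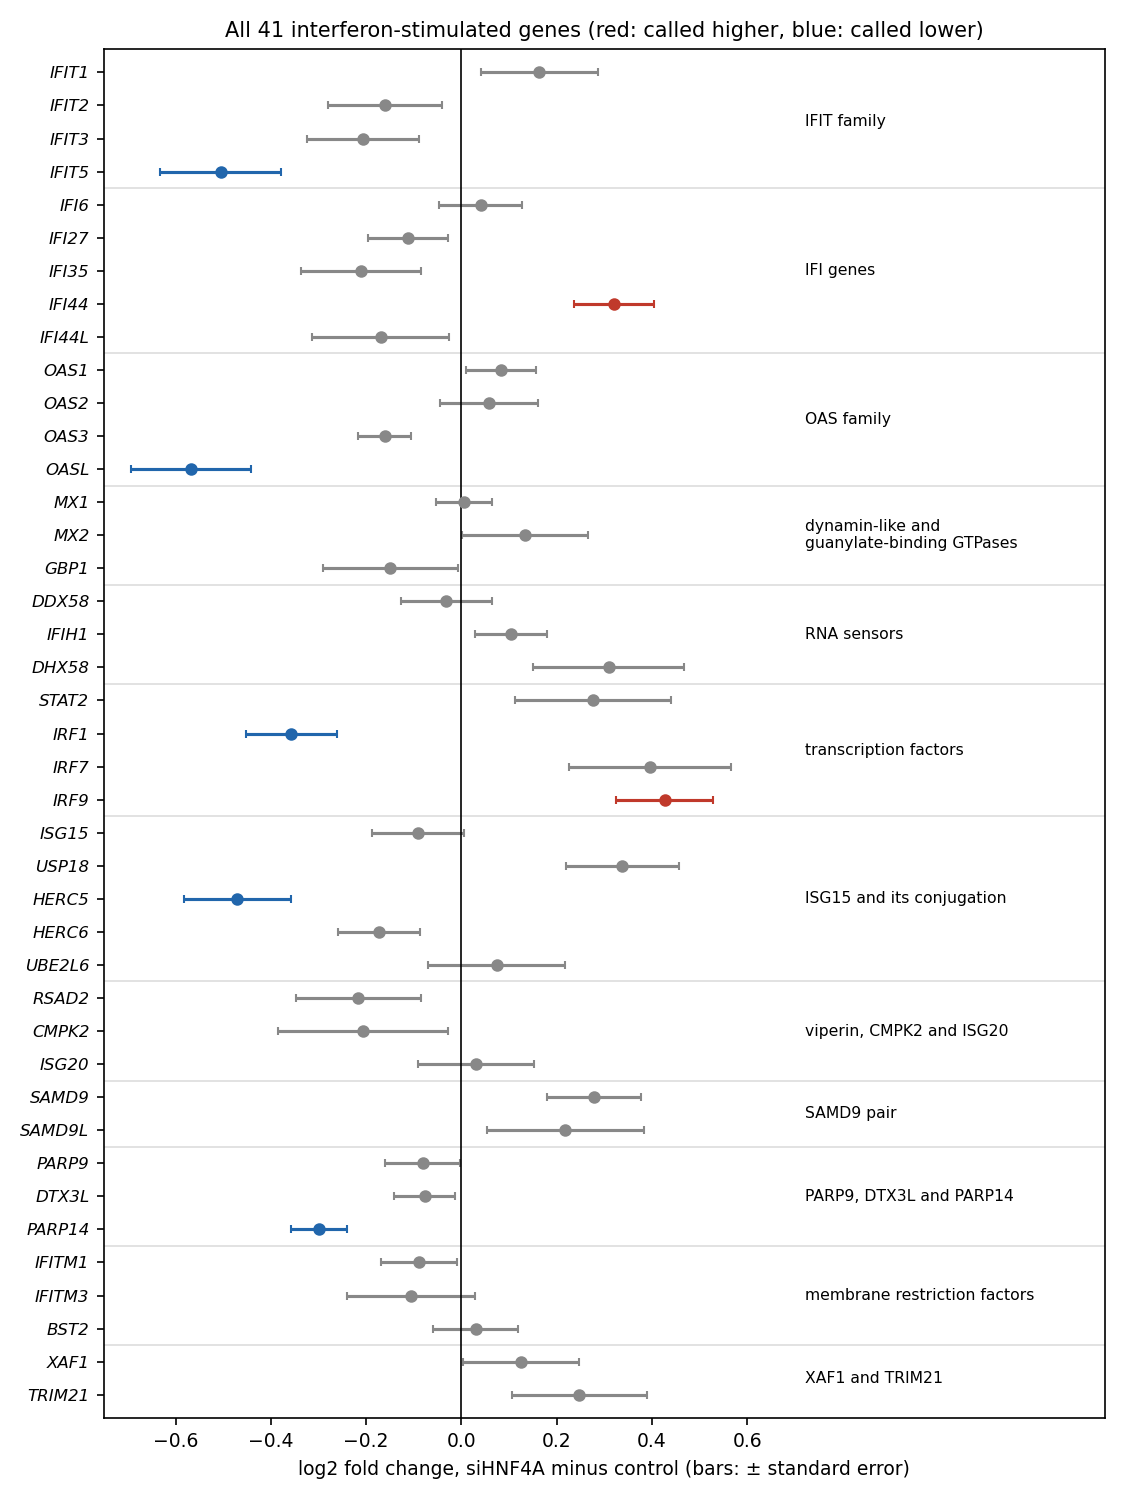
Log2 fold change of each of the 41 genes, siHNF4A minus control, with its standard error from limma, grouped by role. The 5 genes called lower (blue) and the 2 called higher (red) lie in 6 of the 12 roles shown, and uncalled genes (grey) lie on both sides of 0.

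The transcription factors of the response came first. IRF9, the DNA-contacting subunit of the complex that binds the ISRE, had 556 and 616 normalized counts in the control libraries and 758 and 818 in the knockdown libraries. Both knockdown libraries lay above both controls, and IRF9 rose by 0.43 on the log2 scale with a standard error of 0.10 (adjusted p = 0.0215 in limma). Its partner STAT2 had 448 and 309 in the control and 461 and 441 in the knockdown. Control 2 stood apart from the other 3 libraries, and STAT2 was not called (log2 fold change 0.28, adjusted p = 0.302). Its log2 fold change was 0.54 without control 1, which leaves control 2 alone in its group (adjusted p = 0.0168 in limma, with the spread taken from the knockdown pair and the prior), and 0.0097 without control 2.

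IRF1, a factor that binds ISRE-like sites and responds to interferon gamma, moved the other way. It had 947 and 1086 normalized counts in the control and 798 and 784 in the knockdown. The groups did not overlap, and IRF1 fell by 0.36 on the log2 scale with a standard error of 0.096 (adjusted p = 0.0353 in limma). After quantile normalization the adjusted p was 0.0536. IRF7, which amplifies the induction of interferon genes, had 137 and 139 in the control and 167 and 199 in the knockdown. Both knockdown libraries were above both controls, but the difference of 0.40 had a standard error of 0.17 and was not called (adjusted p = 0.157).

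ISG15 is a small ubiquitin-like protein that enzymes attach to other proteins. Of the 5 members grouped as ISG15 and its conjugation, 1 was called. HERC5, the main ligase for ISG15 in human cells, had 621 and 735 normalized counts in the control and 484 and 492 in the knockdown. The knockdown libraries were lower and close together, and HERC5 fell by 0.47 on the log2 scale with a standard error of 0.11 (adjusted p = 0.0219 in limma). HERC6, its neighbour and relative, had 1416 and 1408 in the control and 1177 and 1333 in the knockdown. These groups did not overlap either, but HERC6 was not called (log2 fold change -0.17, adjusted p = 0.218). USP18, the protease that removes ISG15 and also dampens the receptor, had 353 and 387 in the control and 443 and 492 in the knockdown. It lay higher in both knockdown libraries without passing the threshold (log2 fold change 0.34, adjusted p = 0.0902). ISG15 itself had 1462 and 1759 in the control and 1558 and 1455 in the knockdown, with overlapping groups. UBE2L6, the conjugating enzyme between the activating enzyme and HERC5, had a log2 fold change of 0.074 and was not called.

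The oligoadenylate synthetases sense double-stranded RNA and make the messenger that activates RNase L, except OASL, which has lost that activity and acts on the RNA sensor RIG-I. OASL had 406 and 469 normalized counts in the control and 293 and 295 in the knockdown. The knockdown libraries were nearly equal and lay below both controls, and OASL fell by 0.57 on the log2 scale with a standard error of 0.13 (adjusted p = 0.0155 in limma). It had the most negative log2 fold change of the 41 genes. OAS3, the family member that senses long double-stranded RNA, had 6482 and 6718 in the control and 5838 and 5969 in the knockdown. The groups were separate, but the log2 fold change of -0.16 was not called (adjusted p = 0.0860). OAS1 and OAS2 were not called, with log2 fold changes of 0.083 and 0.058. OAS1, OAS3 and OAS2 are neighbours in the genome, while OASL lies apart from them.

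IFIT proteins bind viral RNA by its 5′ end and block its translation, and their genes form a cluster inside the annotated span of LIPA. IFIT5 had 347 and 347 normalized counts in the control and 251 and 238 in the knockdown. The controls were almost equal, and IFIT5 fell by 0.51 on the log2 scale with a standard error of 0.13 (adjusted p = 0.0267 in limma). The other members of the cluster were not called. IFIT1 had 586 and 636 in the control and 610 and 767 in the knockdown, IFIT2 had 706 and 801 against 607 and 746, and IFIT3 had 975 and 1035 against 767 and 987. In each of these the groups overlapped, and siHNF4A 2 was the higher of the knockdown libraries. IFIT1 is flanked by IFIT1B, and the close similarity in the family leaves single values uncertain where reads could not be assigned to 1 gene.

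PARP14, a mono-ADP-ribosyltransferase that acts with the dimer of PARP9 and the ubiquitin ligase DTX3L, had the smallest adjusted p of the list. It had 6082 and 5790 normalized counts in the control and 4750 and 4894 in the knockdown. The groups were well apart relative to their spread, and PARP14 fell by 0.30 on the log2 scale with a standard error of 0.058 (adjusted p = 0.00892 in limma). PARP9 had 2306 and 2405 in the control and 2088 and 2373 in the knockdown, and DTX3L had 3562 and 3678 against 3321 and 3544. Both were uncalled, at log2 fold changes of -0.081 and -0.077. PARP9 and DTX3L overlap in the annotation, and whether counting used the strand is not stated, so that their values may share reads.

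IFI44 and IFI44L are neighbouring genes of related sequence with reported antiviral activity. IFI44 had 1511 and 1460 normalized counts in the control and 1737 and 1979 in the knockdown. Both knockdown libraries were higher, and IFI44 rose by 0.32 on the log2 scale with a standard error of 0.084 (adjusted p = 0.0321 in limma). IFI44L had 886 and 1052 in the control and 732 and 1006 in the knockdown, with overlapping groups, and was not called (log2 fold change -0.17, adjusted p = 0.487). IFI6 and IFI27, which encode small membrane proteins of the endoplasmic reticulum and mitochondria, and IFI35, a cytoplasmic regulator, were not called, with log2 fold changes of 0.040, -0.11 and -0.21. The difference in change between one gene and its neighbour was not tested for any of these pairs.

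**Figure D3:**
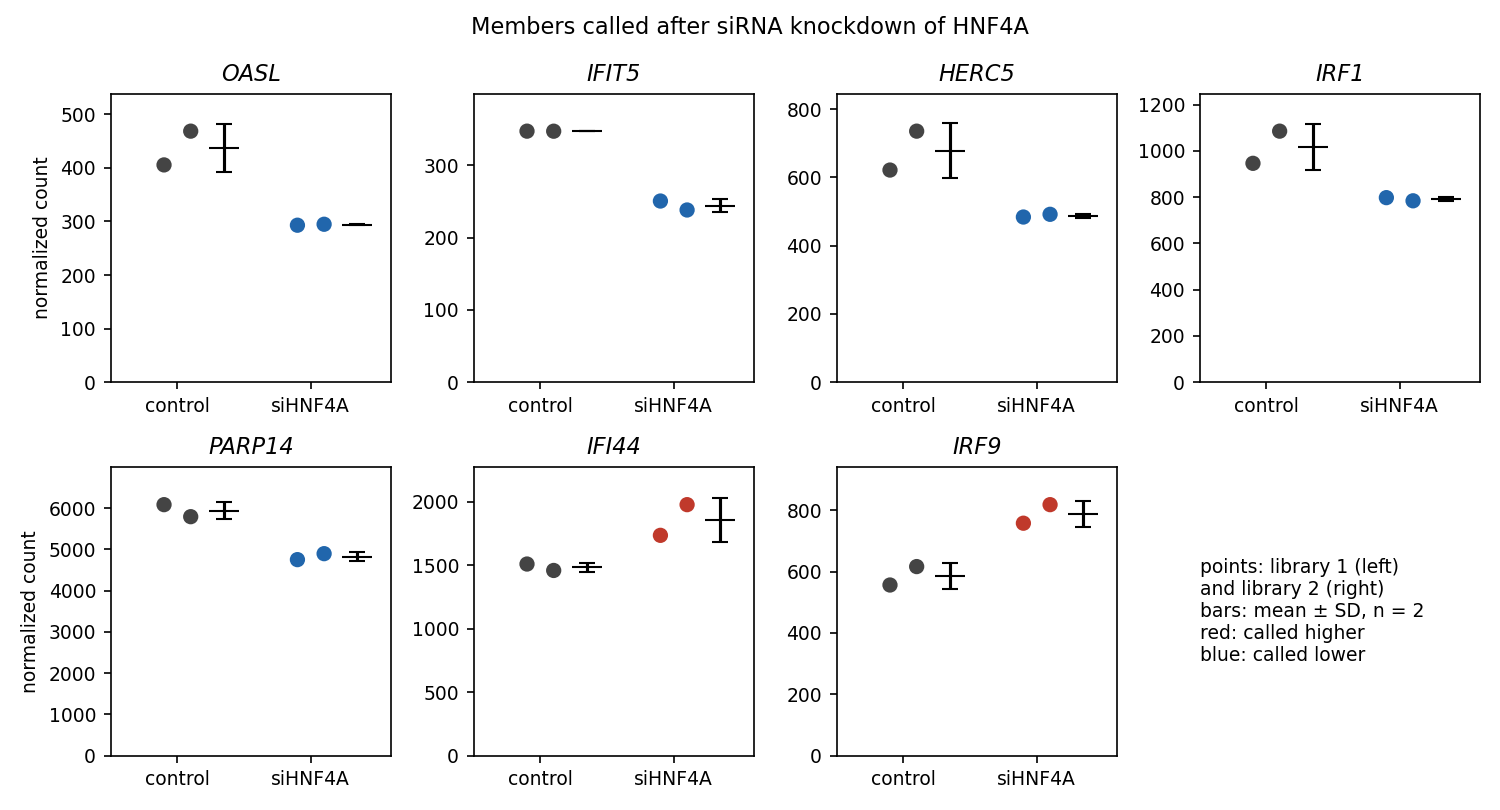
Normalized counts of the 7 called genes in each library (points, library 1 on the left and library 2 on the right of each pair), with the mean and SD of each group of 2. In the 5 genes called lower (blue) and in the 2 called higher (red) the points of the knockdown group do not overlap those of the control group.

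The 7 called genes were also followed with 1 library left out at a time. The log2 fold change lay between -0.67 and -0.46 for OASL, between -0.54 and -0.47 for IFIT5, between -0.59 and -0.35 for HERC5, between -0.46 and -0.26 for IRF1 and between -0.33 and -0.26 for PARP14. It lay between 0.23 and 0.41 for IFI44 and between 0.35 and 0.50 for IRF9. The signs are fixed beforehand by the separation of the groups. PARP14 lost its call without siHNF4A 1 (adjusted p = 0.0771 in limma) and had an adjusted p of 0.0496 without siHNF4A 2. IFI44 lost it without control 2 (0.0661) and without siHNF4A 2 (0.219). IRF9 was called without control 2 and not without control 1 (0.0583), siHNF4A 1 (0.0643) or siHNF4A 2 (0.139). OASL, HERC5 and IRF1 were called without control 1, where the spread comes from their close knockdown pair and the prior, and in no other of these fits. Without control 2, siHNF4A 1 and siHNF4A 2 their adjusted p was 0.0654, 0.0762 and 0.0719 for OASL, 0.104, 0.102 and 0.0866 for HERC5, and 0.173, 0.122 and 0.144 for IRF1. IFIT5 was called in none of the 4, with an adjusted p of 0.051 without control 1, 0.0602 without control 2, 0.0881 without siHNF4A 1 and 0.129 without siHNF4A 2.

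The RNA sensors start the response. DDX58, which encodes RIG-I, had 679 and 712 normalized counts in the control and 660 and 701 in the knockdown, and IFIH1, which encodes MDA5, had 1525 and 1610 against 1639 and 1728. DHX58, a relative without signalling domains that tunes both, had 207 and 169 in the control and 226 and 238 in the knockdown. None of the 3 was called, with adjusted p of 0.861, 0.412 and 0.232 in limma. The differences were small for DDX58 and IFIH1, at -0.032 and 0.10 on the log2 scale with standard errors of 0.095 and 0.076, and DHX58 stood at 0.31 with a standard error of 0.16.

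SAMD9 and SAMD9L are neighbouring genes whose products restrict poxviruses and inhibit translation, and neither was called. SAMD9 had 1317 and 1269 normalized counts in the control and 1419 and 1731 in the knockdown. Both knockdown libraries were higher (log2 fold change 0.28, adjusted p = 0.0941 in limma). With 1 library left out at a time, the log2 fold change of SAMD9 lay between 0.13 and 0.42. SAMD9L had 372 and 412 against 379 and 547, so that its log2 fold change of 0.22 came from siHNF4A 2. The antiviral GTPases MX1 and MX2 and the guanylate-binding protein GBP1 had log2 fold changes of 0.0059, 0.13 and -0.15. MX1 had 4554 and 4547 normalized counts in the control and 4462 and 4678 in the knockdown, a difference smaller than that between the knockdown libraries.

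Viperin, encoded by RSAD2, makes a chain-terminating nucleotide from the product of CMPK2, and both genes overlap in the annotation. RSAD2 had 427 and 486 normalized counts in the control and 358 and 429 in the knockdown, and CMPK2 had 332 and 302 against 227 and 332. In both genes siHNF4A 1 was the lowest of the 4 libraries, and neither was called (log2 fold changes -0.22 and -0.21). The exonuclease ISG20 had 942 and 1246 in the control and 1123 and 1091 in the knockdown, with both knockdown values between the controls. The membrane proteins IFITM1, IFITM3 and BST2, which hold back virus entry or release, had log2 fold changes of -0.089, -0.11 and 0.030, and none was called. IFITM3 shares much of its sequence with IFITM2, which had 8.34 to 15.8 normalized counts, so that reads of this family may not be placed with certainty. XAF1, a promoter of cell death, and TRIM21, a cytosolic antibody receptor, had log2 fold changes of 0.12 and 0.25 and were not called.

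The spread between libraries of 1 group was then set beside the difference between groups. Over the members the median absolute log2 difference was 0.15 between the control libraries, 0.11 between the knockdown libraries and 0.16 between the group means. The same medians were 0.14, 0.13 and 0.20 over all genes tested, and 0.10, 0.093 and 0.16 over the genes of like mean. A difference between means of 2 libraries varies less than one between single libraries, so these medians are not on an equal footing. In 17 of the 41 genes (41.5%) the difference between groups was larger than both differences within groups, against 45.1% of all genes tested and 51.4% of those of like mean. Both knockdown libraries lay on the same side of both controls in 20 of the 41 genes, 10 higher and 10 lower (48.8%), where 57% of all genes tested were separated in this way, 26.9% higher and 30.1% lower, and 63.1% of those of like mean. Within groups the members leaned to one library. In siHNF4A 2 31 of the 41 genes had a higher value than in siHNF4A 1, with a median log2 difference of 0.094, while 48.1% of all genes and 47.9% of those of like mean did, with medians of -0.0090 and -0.0077. In control 2 29 of the 41 exceeded control 1, with a median of 0.087, beside 54.4% and a median of 0.021 over all genes and 59.3% and 0.033 over those of like mean. The largest such differences were those of CMPK2 and SAMD9L between the knockdown libraries, 0.55 and 0.53 on the log2 scale, and that of STAT2 between the controls, -0.53. These values are given as a description of the 4 libraries, and their source was not tested.

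**Figure D4:**
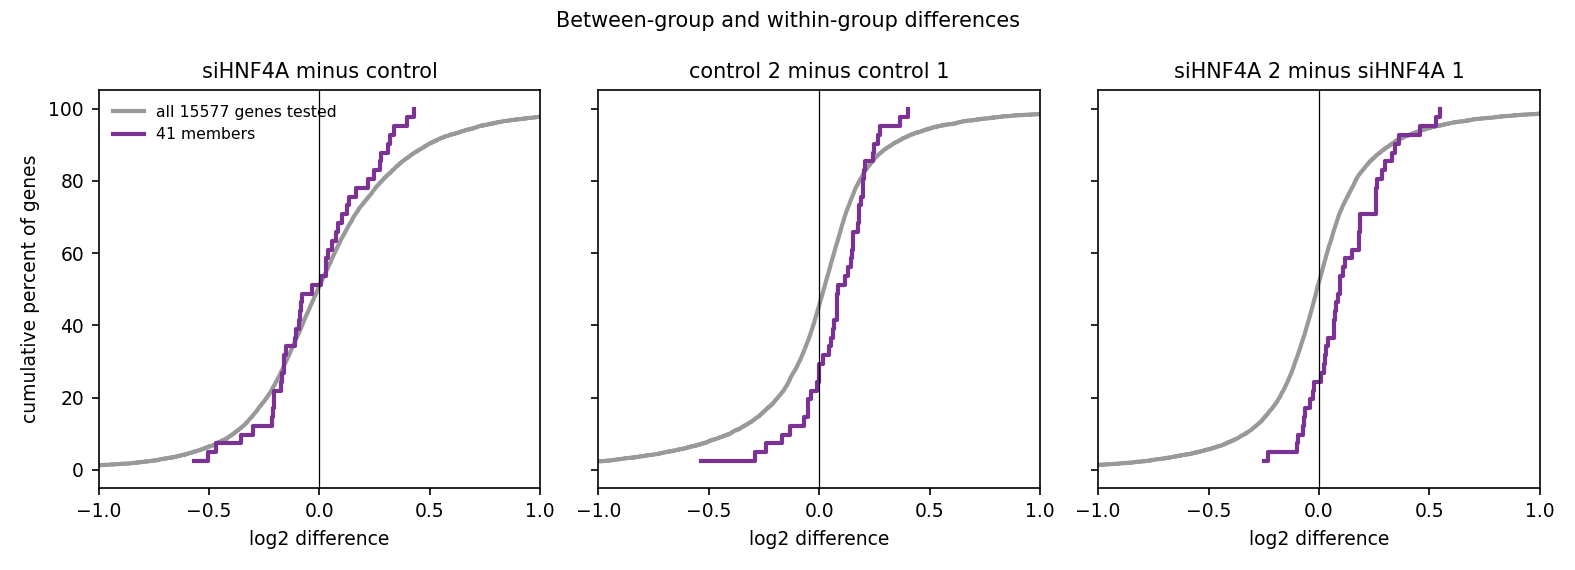
Cumulative distributions of log2 differences for the 41 genes (purple) and for all 15577 genes tested (grey), between groups in the left panel and between the libraries of each group in the other panels. The curves cross 50% near 0 in the left panel, with medians of -0.032 and -0.0073, while within each group the curve of the members is shifted to the right, with medians of 0.087 and 0.094.

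Genes with and without an ISRE core were then set side by side. The 23 genes with a core had log2 fold changes from -0.51 to 0.32 with a median of -0.089, and 3 of them were called lower (HERC5, IFIT5 and PARP14) and 1 higher (IFI44). The 11 genes with a promoter and no ISRE core ran from -0.36 to 0.43 with a median of 0.074, and 1 was called in each direction (IRF1 and IRF9). The 7 genes without a promoter entry had a median of 0.13, and 1 of them, OASL, was called lower. These counts stand beside the 8.11% called lower and 6.02% called higher among all genes tested, and the difference between the classes was not tested. Among these 11, the 4 with a GAS core were IFI35, IRF1, IRF9 and OAS1. The sequences printed above thus come from genes that fell, rose or were not called, and ISG15 and IFIT1, whose stretches hold 2 ISRE cores each, had log2 fold changes of -0.091 and 0.16.

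Other genes of the pathway were counted from lists of named genes. The interferon genes were at or near 0. Of 10 listed, 5 had a row in the table and none passed the filter. IFNB1 was listed at 0 in both controls and had 1.80 and 2.01 normalized counts in the knockdown, IFNL1 had 6.11 and 1.11 against 1.81 and 3.04, and IFNL2 had 3.67 and 2.21 against 3.64 and 4.06. These values are too low to compare. Of the 10 genes on the list of receptors and kinases, all tested, 0 were called in limma and 3 had an unadjusted p under 0.05, beside 0 called without the trend in the variance. Of the 19 genes of sensing and induction 2 were called. TRAF3, an adaptor of interferon induction, rose from 1225 ± 44.4 to 1582 ± 78.1 normalized counts (SD, n = 2; log2 fold change 0.37, adjusted p = 0.0144 in limma), and its adjusted p was 0.109 without siHNF4A 2. PRKRA, an activator of the kinase PKR, fell from 1604 ± 22.6 to 287 ± 16.3 (SD, n = 2; log2 fold change -2.48, adjusted p = 3.78e-06 in limma).

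Of 10 negative regulators 3 were called. SOCS1, which inhibits the JAK kinases and is itself induced by interferon, had 94.1 and 111 normalized counts in the control and 40.6 and 40.5 in the knockdown. Its knockdown values were nearly equal and well below the controls, and SOCS1 fell by 1.31 on the log2 scale with a standard error of 0.24 (adjusted p = 0.00627 in limma). NFKBIA, the inhibitor of NF-kB, fell by 0.38 (adjusted p = 0.0155, and 0.106 without siHNF4A 1), and the phosphatase gene PTPN11 rose by 0.29 (adjusted p = 0.00919, and 0.0966 without siHNF4A 2). Among 40 further interferon-stimulated genes that are not members, 14 were called, 8 lower and 6 higher, with a median log2 fold change of -0.039. Of all genes tested 14.1% were called, and of those with means within the range of the members 19%. SP110, a nuclear body protein, rose by 0.66, and STAT3 rose by 0.34. TRIM14, an adaptor of the RIG-I pathway, TDRD7, a Tudor-domain protein, and PNPT1, a mitochondrial exoribonuclease, fell, with log2 fold changes of -0.49, -0.49 and -0.40. These 5 genes were called in each of the 4 fits that left out 1 library. CXCL10, a chemokine strongly induced by interferon and named after its values were seen, had 19.5 and 28.8 normalized counts in the control and 46.1 and 58.8 in the knockdown and was not called (217% of the control mean, adjusted p = 0.0526 in limma).

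Of 12 target genes of NF-kB, a factor that also drives IRF1 in many cells, 9 were tested and 3 were called, all 3 lower. Any link to the lower IRF1 was not tested. The median log2 fold change of the 9 was -0.34. TNFAIP2, CCL20 and ICAM1 had log2 fold changes of -0.97, -1.44 and -0.71, with adjusted p of 0.00360, 0.0117 and 0.0169 in limma. The uncalled genes ran from -0.43 for BIRC3 to 0.0035 for RELB, with NFKB2, SOD2 and CXCL2 at -0.033, -0.024 and -0.032. ICAM1 had an adjusted p of 0.0636 without control 1, 0.0815 without siHNF4A 1 and 0.0746 without siHNF4A 2, and CCL20 had 0.0748 without siHNF4A 2. In all, 22 of the 88 tested genes on these pathway lists were called, 8 higher and 14 lower, and this number was 11 without siHNF4A 1 and 13 without siHNF4A 2. The lists were chosen with earlier results of these data known. Their counts are a description beside the 14.1% called among all genes tested and the 19% among the genes of like mean.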

How the data were processed

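RNA-seq libraries of ESO26 cells, 2 with siRNA knockdown of HNF4A and 2 controls, were grouped by their titles. The series' text mentions more replicates, which are not used here. The values are normalized counts, a fractional signal per gene symbol that the authors deposited. How they were counted and normalized is not given in the sources used here. The submitters' processing notes name Bowtie, Bowtie2, Trim Galore, Picard, MACS2 and build hg19 without assigning them to data types. Whole reads could not be recovered from the low values, so the depth is unknown and no count model or counting interval was used. Members and lists were chosen with earlier results of these data known. Genes with a mean of at least 10 were compared in R 4.3.3 by limma 3.58.1, using eBayes with a trend and no block, on log2(normalized count + 1), with Benjamini-Hochberg adjustment over all 15577 genes. Fold changes on this scale understate the change of low genes. The code was tested on simulated data with 200 changed genes. Of simulated absolute log2 changes of 0.5 and 1, 28.5% and 63.1% were called, so that an uncalled gene may still have changed. Called members and the 5 uncalled members with the smallest p are given with full values, other members by role, and of each pathway list up to 5 called genes with the smallest p, plus PRKRA and HNF4A. Some uncalled genes of these lists are named beside them. Single values of some genes are not reported here. Promoters and gene order come from RefSeq (GRCh38.p14). ChIP-seq peak lists and the 4C libraries were not used here, since no annotation of build hg19 was at hand to place a peak at a gene. Alternatives were other pseudocounts (0.5 and 5), filters (a mean of 50, and none), 2 rescalings, no trend, a replicate block, a minimum fold change, leaving out each library, a shorter promoter window and, added after the data were seen, a robust fit and a background of genes of like mean.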

Additional observations from a re-analysis of the deposited data

How the results depend on the processing

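Of 369 values of the 41 genes under the 9 alternatives that kept all 4 libraries, 354 kept their sign and their side of the threshold and 15 lost a call. The 15 were all 7 calls without the filter, all 7 without the trend and IRF1 after quantile normalization. Without the filter 726 genes were called in the whole table, 0 members (11 with an unadjusted p under 0.05) and 8 genes of the pathway lists. This setting tests 30247 genes. Without the trend limma called 0 genes (3524 with an unadjusted p under 0.05), 0 members (9 with an unadjusted p under 0.05) and 0 pathway genes, and HNF4A stood at -1.97 with an adjusted p of 0.0919. The cause was not tested. A minimum of 0.5 for the absolute log2 fold change left 933 genes and 2 members, OASL and IFIT5, in a background of 5.99%. Under the other alternatives with all libraries 6 or 7 members were called, and the median over members lay between -0.032 and -0.00018.

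With the replicate block 7 members were called, the same genes as without it, and 2428 genes in the whole table. It changed no call among the members. Deviations of like-numbered libraries from their group means had a Pearson correlation of -0.019 (15577 genes), and the numbers were treated as names, not as pairs.

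With 1 library left out at a time, the called genes numbered 906 to 2413, the called members 1 to 6 and the called pathway genes 11 to 21. HNF4A lay between -2.11 and -1.82, and the median of the members between -0.072 and 0.012. These log2 fold changes crossed 0, none of them called in any of these fits: IFIT1 (-0.0013 to 0.33), IFI6 (-0.074 to 0.15), IFI27 (-0.24 to 0.013), IFI44L (-0.40 to 0.059), OAS2 (-0.071 to 0.19), MX1 (-0.028 to 0.040), GBP1 (-0.32 to 0.024), DDX58 (-0.076 to 0.012), ISG15 (-0.22 to 0.042), UBE2L6 (-0.064 to 0.21), CMPK2 (-0.48 to 0.069), ISG20 (-0.17 to 0.23), SAMD9L (-0.047 to 0.48), PARP9 (-0.17 to 0.011), IFITM3 (-0.29 to 0.079), BST2 (-0.072 to 0.13) and XAF1 (-0.0056 to 0.26). With only the 250 bases before the start, 61.8% of the 34 genes held an ISRE core. Depth is unknown, and genes with a mean under 10 were not tested.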
